A study of Mus musculus with 4 samples.

Results

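Hemidesmosomes and the laminins beneath them fasten an epithelium to its basement membrane. Open chromatin was examined here around 8 genes of this machinery, Itga6, Itgb4, Col17a1, Dst, Itga3, Lama3, Lamb3 and Lama5, in mouse facial surface ectoderm. Members were all peaks of the deposited lists whose centre lay within 100 kb of the start site of the principal transcript of 1 of these genes. This gave 126 of the 65467 control peaks and 6 of the 3103 AP-2-dependent regions of the study, over 8 of 21829 protein-coding genes.

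The study removed the transcription factors AP-2α and AP-2β, encoded by Tfap2a and Tfap2b, from the embryonic ectoderm and asked which open chromatin depends on them. ATAC-seq, in which a transposase cuts and tags DNA that is free of nucleosomes, was run on facial surface ectoderm at E11.5, pooled over the prominences. Ectoderm was peeled from the mesenchyme after Dispase II treatment, and 2 control and 2 EDKO libraries were made. Control littermates carried 1 floxed copy of each gene and no Cre (Tfap2a flox/+; Tfap2b flox/+), whereas EDKO embryos carried Crect with both copies floxed (Tfap2a flox/flox; Tfap2b flox/flox). Crect is a transgene in which an intronic enhancer of Tfap2a drives Cre, and it can recombine in more than the ectoderm. To avoid this, the study passed it only through sires, which were first tested with reporter lines. The groups therefore differed in the transgene as well as in the number of floxed alleles.

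A control peak was called from both control libraries together. An AP-2-dependent region was called from both control libraries with both EDKO libraries as the background, and it marks DNA that was more open in control than in EDKO ectoderm. Neither list holds a value for a single library, so the spread between replicates is not known and no difference was tested. Strength is given as the −log10 p at the summit and as the area under the curve, which adds up, base by base, how far the −log10 p exceeds the calling threshold. These values belong to 1 list each and are compared only within it. Read depth is not known from the lists. Start sites of all 8 ectodermal marker genes examined, among them Krt14 and Cdh1, had a control peak within 1 kb, and so did those of all 8 mesenchymal marker genes, among them Prrx1 and Twist1. The presence of a peak thus did not separate the ectodermal from the mesenchymal genes. The highest summits ran from 6.77 (Krt8) to 11.7 (Cdh1) in the ectodermal set. In the mesenchymal set they ran from 3.78 (Prrx1) to 10.1 (Pdgfra). Any coding start of a marker gene counted. Of all protein-coding genes, 62.8% had a control peak within 1 kb of the principal start.

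Each hemidesmosome is built around the integrin α6β4, whose chains are the products of Itga6 and Itgb4. This receptor grips laminin-332 outside the cell and, through the long cytoplasmic tail of β4, the keratin linkers inside it. BP180, the transmembrane collagen encoded by Col17a1, stands beside the integrin, and BP230, an epithelial product of Dst, ties the plaque to keratin filaments. Laminin-332 is a trimer whose α3 and β3 chains are the products of Lama3 and Lamb3. Itga3 encodes the partner of β1 in a further laminin receptor, and Lama5 encodes the α chain of laminin-511.

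The 6 AP-2-dependent regions lay at 6 different genes, 1 each at Itgb4, Col17a1, Itga3, Lama3, Lamb3 and Lama5. Neither Itga6 nor Dst had one. In bulk tissue, fewer cells with an open site and less opening per cell cannot be told apart. The sequences around 5 of the region summits are shown because these are the stretches of the member loci that were called as less open in EDKO ectoderm. The sequence of the sixth, at Lama3, is not shown. Each is the plus strand of GRCm38, 5′ to 3′, from 100 bp before the summit of the region to 100 bp after it. Capitals mark matches to any of the strings searched on both strands, which were the AP-2 string GCCNNNGGC, its form with 1 more base in the spacer, the TEAD string GGAATG, the Grainyhead-like string AACCNGTT, the AP-1 string TGANTCA and a consensus string of the p53 family.
Itgb4 region, chr11:115904576-115904776: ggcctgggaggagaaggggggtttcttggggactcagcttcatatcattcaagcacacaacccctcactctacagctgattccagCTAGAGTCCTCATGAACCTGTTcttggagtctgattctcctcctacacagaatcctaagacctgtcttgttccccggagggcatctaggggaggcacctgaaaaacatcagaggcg
Col17a1 region, chr19:47698378-47698578: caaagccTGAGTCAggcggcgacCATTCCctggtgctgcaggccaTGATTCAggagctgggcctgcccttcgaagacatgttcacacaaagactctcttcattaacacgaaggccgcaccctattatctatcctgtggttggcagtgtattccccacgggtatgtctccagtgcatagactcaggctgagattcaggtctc
Itga3 region, chr11:95070224-95070424: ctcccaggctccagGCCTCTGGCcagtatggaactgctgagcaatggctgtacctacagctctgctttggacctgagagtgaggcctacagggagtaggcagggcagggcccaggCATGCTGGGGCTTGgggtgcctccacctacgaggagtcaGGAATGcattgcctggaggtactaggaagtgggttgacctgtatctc
Lamb3 region, chr1:193400954-193401154: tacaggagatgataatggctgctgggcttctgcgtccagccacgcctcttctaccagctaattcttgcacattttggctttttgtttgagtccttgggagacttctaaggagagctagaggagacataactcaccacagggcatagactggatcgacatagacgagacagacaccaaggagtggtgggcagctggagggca
Lama5 region, chr2:180236666-180236866: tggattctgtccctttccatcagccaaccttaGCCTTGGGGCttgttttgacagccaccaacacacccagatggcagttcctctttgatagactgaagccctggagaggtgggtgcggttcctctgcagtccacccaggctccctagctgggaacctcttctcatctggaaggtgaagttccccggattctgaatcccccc
The Itga3 window held the AP-2 string, 78 to 86 bp before the summit, and a p53 family and a TEAD string after it. The Itgb4 window held a Grainyhead-like string on its summit, directly after a p53 family string. The Col17a1 window held 2 AP-1 strings with a TEAD string between them, all on the side of lower coordinates. The Lama5 window held only the AP-2 string with the longer spacer, and the Lamb3 window held none of the 6 strings. The window at Lama3 held a TEAD string. Over the whole length of the regions, GCCNNNGGC was found in 1 of the 6 (16.7%, 95% Wilson interval 3.01 to 56.4%) and in 29.7% of the regions of the list on the 21 chromosomes. A match describes these letters and is not a bound site.

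Itga3 carried the strongest of the 6 regions. It spanned 336 bp (chr11:95070230-95070565), 6.32 kb downstream of the start site in intron 1. Its area under the curve was 1012 and its summit reached a −log10 p of 7.18. By area it ranked above 86.5% of all regions of the list. The region filled 15.6% of a control peak of 2151 bp (chr11:95069528-95071678) whose own summit, at a −log10 p of 10.2, lay 3 bp away. A second annotated start site of Itga3 lies 7.52 kb downstream of the first, just past this control peak, and no control peak covered it. Within the peak the region therefore marks a narrow part around the summit, and the rest of the peak was not called as different.

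Lama5 had the next strongest region by area. The region (chr2:180236442-180236852, 411 bp) lay 10.8 kb upstream of the start site, between genes, with an area of 558 and a summit −log10 p of 5.32. It took up 37.8% of a control peak of 1087 bp with a summit of 9.03. A neighbouring control peak 9.46 kb upstream, with a similar summit of 8.87, held no region.

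The Col17a1 region was weaker and wide for its peak. Col17a1 had the fewest control peaks of the 8 genes, 7 in all, and 1 of them (chr19:47697914-47698682), 6.20 kb upstream of the start site, held a region of 547 bp (chr19:47698012-47698558). The region filled 71.1% of this peak, the largest share among the 6, with an area of 301 and a summit −log10 p of 3.52, which exceeded 8.64% of the regions of the list. The peak was flanked by control peaks 9.21 and 16.0 kb upstream, with summits of 4.63 and 7.13, that held none. Col17a1 was thus a locus with 3 open elements in a row upstream of the start, of which the nearest was called as less open in EDKO ectoderm.

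The remaining regions lay farther from the gene or nearer to another one. At Itgb4 the region (chr11:115904618-115904839, 222 bp) lay 70.0 kb upstream, inside intron 7 of Recql5 and 4.55 kb from the start site of Smim5. It sat away from the summit of a strong control peak (chr11:115904099-115905808, summit −log10 p of 11.0), filled 13.0% of it and had its summit 407 bp from that of the peak. In the other 5 regions the summits of region and peak were 1 to 81 bp apart. The Itgb4 region had an area of 273, the lowest of the 6.

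At Lama3 the region lay 35.5 kb upstream (chr18:12298145-12298400, 256 bp), in intron 1 of Ankrd29 and 7.52 kb from the start site of that gene. Its area was 305 and its summit −log10 p 4.20, inside a control peak with a summit of 9.24. At Lamb3 the region (chr1:193400915-193401398, 484 bp) lay 99.2 kb downstream, at the limit of the window, 30.9 kb from the start site of Camk1g. It had an area of 290 and a summit of 4.21. The first region beyond the limit lay 105.5 kb from the start site of Itga3, with an area of 388, and the start site of Dlx4 was nearer to it. In all, 3 of the 6 regions had a member start site as the nearest one, those at Col17a1, Itga3 and Lama5.

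**Figure D1:**
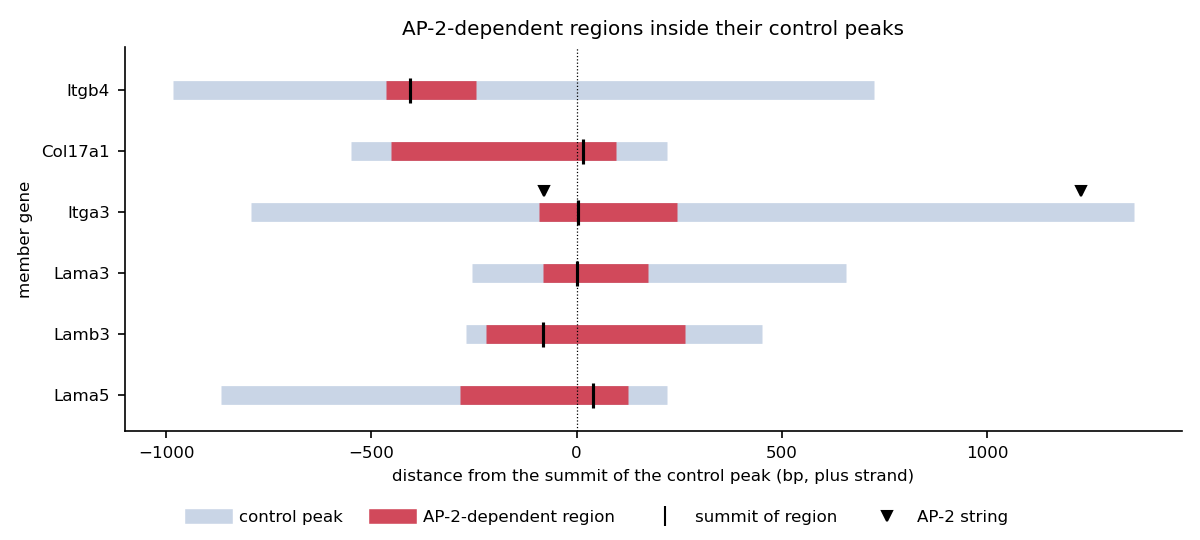
The 6 AP-2-dependent regions (red) inside the control peaks that contain them (light blue), by distance in bp from the summit of the control peak along the plus strand. Black ticks are region summits and triangles matches of GCCNNNGGC in the control peak. The regions filled between 13.0% (Itgb4) and 71.1% (Col17a1) of their peaks, and the Itgb4 summit lay 407 bp from that of its peak.

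Read against the whole list, the share of member peaks that contained an AP-2-dependent region was ordinary. An AP-2-dependent region overlapped 6 of 126 member control peaks (4.76%, 95% Wilson interval 2.20 to 10.0%) and 4.48% of all control peaks. Among distal peaks, those with no principal start site within 5 kb, it overlapped 5 of 78 (6.41%, 2.77 to 14.1%) against 5.73%. The 5 include the Itga3 peak, which lies beside a second annotated start site. Nearer to a principal start site a region overlapped 1 of 48 (2.08%, 0.369 to 10.9%) against 1.54%. These shares are near the background and are no result about the adhesion genes. Such intervals cover counting error only, and peaks of 1 locus are not independent samples.

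The same 6 regions can also be counted by gene, which is no separate result. A region lay within 100 kb of 6 of the 8 genes (75.0%, 40.9 to 92.9%) and of 20.2% of all protein-coding genes. The member loci were rich in control peaks, with a median of 14.5 peaks against 8 over all genes. Of the 12203 genes with 7 to 31 control peaks within 100 kb, the range of the members, 28.8% had a region. These genes were not matched to the members' numbers of peaks within that range. A member start site was the nearest one for 3 of the 6 regions. Each of the 6 genes had a single region, and with only those of an area of at least 500 kept, 2 genes were left, Itga3 and Lama5. Sets of genes with as many peaks can still differ in other ways that were not tested.

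The start sites themselves were open at all 8 genes and held no region. A control peak covered the principal start site of each (8 of 8 within 1 kb, 67.6 to 100%), against 62.8% of protein-coding genes with a control peak within 1 kb. The integrin gene Itgb4 had the strongest start-site peak, with a summit −log10 p of 11.7, followed by Lama5 at 10.2 and Itga3 at 9.98. These genes also had the widest start-site peaks, at 2513, 2808 and 3719 bp. Itga6, Dst and Lamb3 were close together at 8.22, 8.21 and 8.13.

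Lama3 at 7.59 and Col17a1 at 6.60 had the weakest start-site peaks. All 8 values lay above the median of 5.10 over all control peaks and 6 of the 8 lay above 7.64, the median of the list for peaks with a start site within 5 kb. The peak at Itga6 (chr2:71786541-71789031) and that at Dst (chr1:34011062-34012220) held GCCNNNGGC within 100 bp of the summit, 157 bp after and 172 bp before the start site at their nearer ends. The same was true of Lama3, and the other 5 start-site peaks had no match there. These short stretches show the AP-2 string, in capitals, at start sites that were not called as AP-2-dependent, on the plus strand, which is also the strand of both genes.
Itga6 start-site peak, chr2:71787125-71787153: caccgcgcgcGCCCATGGCggtcgcgggc
Dst start-site peak, chr1:34011635-34011663: cagcgccgtgGCCCGGGGCgccgggtctg

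**Figure D2:**
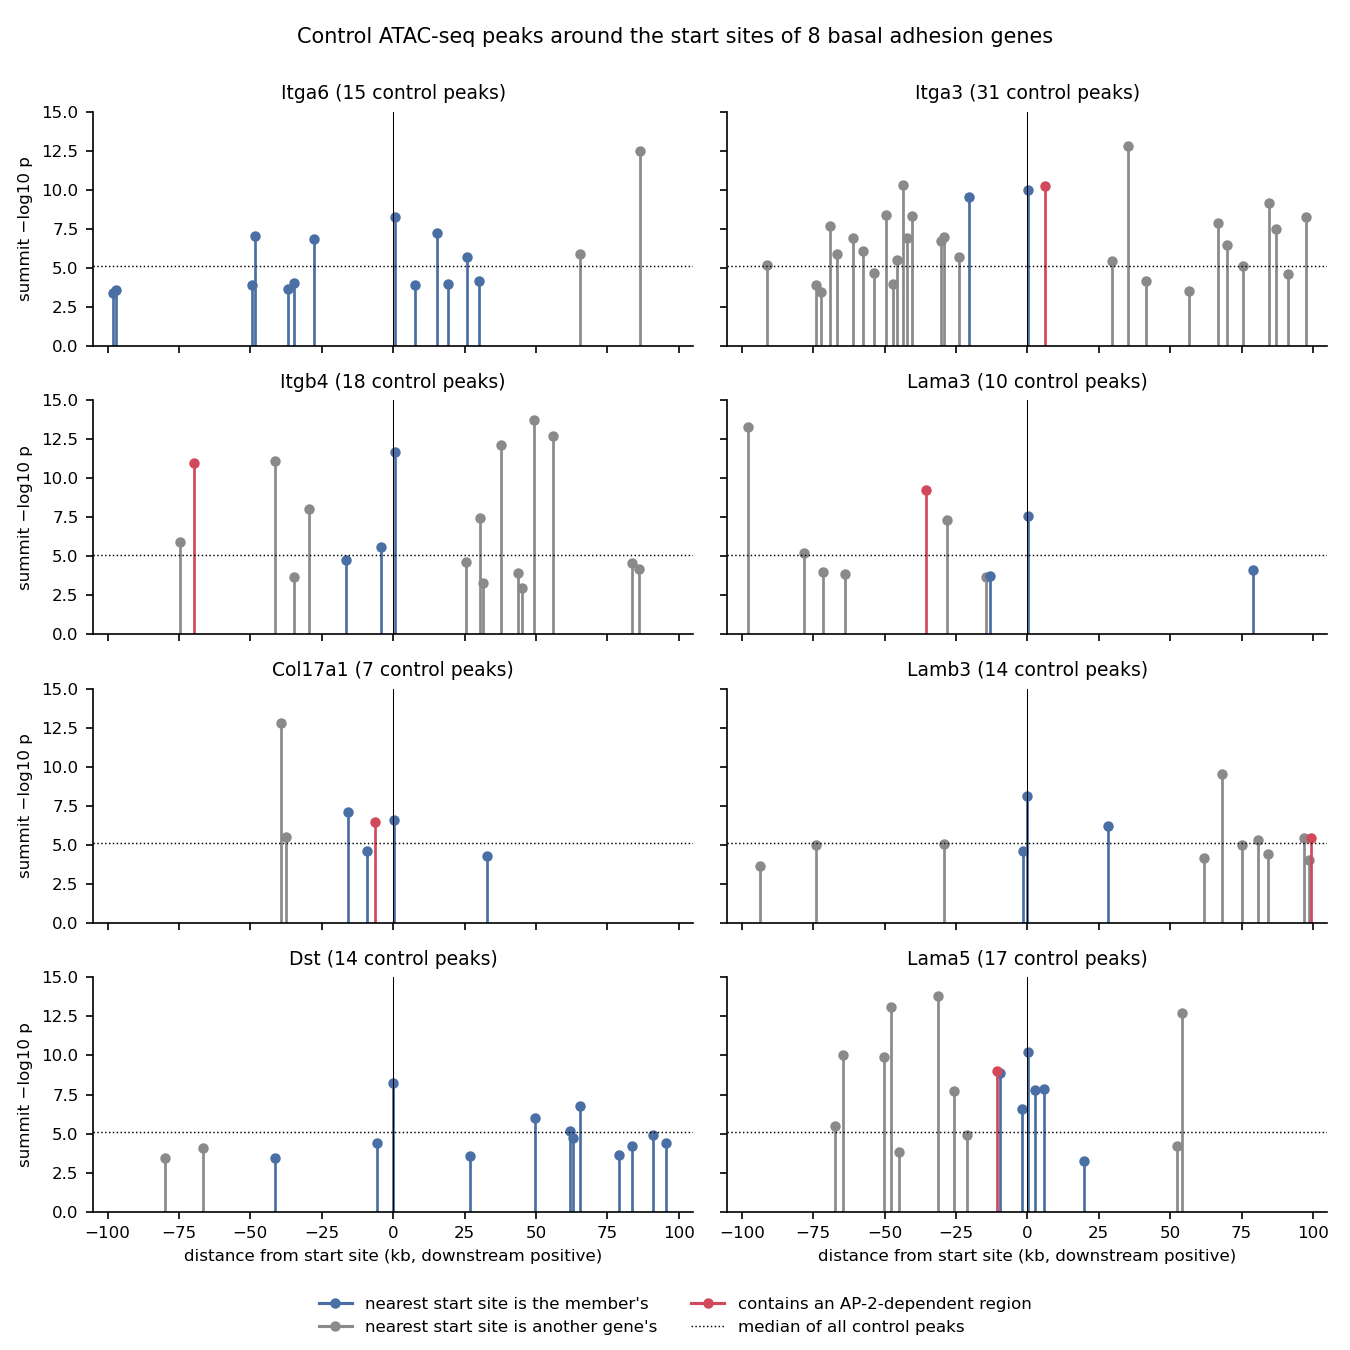
Control peaks within 100 kb of the start site of each gene, by distance in kb (downstream positive) and summit −log10 p. Red peaks contain an AP-2-dependent region, blue and grey peaks have the member's or another gene's start site as the nearest one, and the dotted line is the median of all control peaks (5.10). Every start site carries a peak above this line, and in 7 of 8 panels the tallest peak is grey.

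The surroundings of the 8 genes were unlike each other. Itga3 had 31 control peaks, more than 99.3% of genes, in a window that holds 5 further start sites, among them those of the homeobox genes Dlx3 and Dlx4, and 3 of the 31 had Itga3 as the nearest gene. Itgb4 followed with 18 peaks and 7 further start sites, and 3 of its peaks were nearest to it. Lama5 had 17 peaks, with 7 nearest to it. In these gene-dense windows most open elements had a neighbour's start site as the nearest one.

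Itga6 and Dst stood at the other end. Of 15 control peaks at Itga6, 13 were nearest to it, and of 14 at Dst, 12 were. Dst had no other principal start site within 100 kb, and all 14 peaks lay within the extent of its annotated transcripts. The Dst peaks were mostly weak, with a median summit −log10 p of 4.39, and those of Itga6 had a median of 4.11, against 5.10 over all control peaks. Lamb3 had 14 control peaks (3 nearest to it), Lama3 had 10 (3 nearest) and Col17a1 had 7 (5 nearest). In all, 49 of the 126 member peaks had the member's start site as the nearest.

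The strongest peak of the window lay at a different gene in 7 of 8 cases. These were the start-site peaks of Pdk1 beside Itga6 (12.5), H3f3b beside Itgb4 (13.7), Sfr1 beside Col17a1 (12.8), Pdk2 beside Itga3 (12.8), Npc1 beside Lama3 (13.3), Camk1g beside Lamb3 (9.57) and Rps21 beside Lama5 (13.8), each given as its summit −log10 p. At Dst alone the strongest peak was its own start-site peak. None of the 8 strongest peaks contained a region.

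Inside the integrin genes, several open elements lay in introns and held no region. Itga6, the α chain of the hemidesmosomal receptor, had 4 control peaks in intron 1, and the strongest of them, 15.2 kb downstream of the start, had a summit −log10 p of 7.23 and an AP-1 string. Upstream of Itga6 the peaks 48.2 and 27.8 kb away, at 7.04 and 6.81, both held GCCNNNGGC. The region nearest to Itga6 was 180 kb downstream and 14.4 kb from the start site of Rapgef4. Itgb4 had 3 intronic control peaks in introns 31, 33 and 35, of which the one in intron 33, at 7.46, was the strongest.

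The laminin genes also had intronic peaks without a region. Lama5 had peaks in introns 1, 2 and 6 with summits of 7.79, 7.85 and 3.22. Lamb3 had 1 such peak, 28.4 kb downstream in intron 11, at 6.20 and with an AP-1 string, and Lama3 had 1 within 100 kb, in intron 7 at 4.14. The hemidesmosomal collagen gene Col17a1 had 1 in intron 33 at 4.32. Of all 126 member peaks, 43 had their summit in an intron of a principal transcript, 9 in an untranslated part of an exon, 4 in a coding exon and 53 between genes, and 17 lay in another annotated transcript.

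Dst, Lama3 and Lamb3 have start sites far from the principal one, and some fall outside the window. Dst makes several plakin isoforms, of which the hemidesmosomal BP230 is the short epithelial form. The strongest control peak at any annotated coding start of Dst (chr1:34159868-34160885, summit −log10 p of 9.35) covered a start site 149 kb downstream of the principal one. From there 3 annotated transcripts begin, the shortest with a coding length of 7917 nucleotides, against 22179 for the principal transcript. The principal start had 8.21 and a start 104 kb upstream had 7.62, in a peak that also covers the principal start site of Bend6. No AP-2-dependent region lay within 100 kb of any of the annotated coding starts of Dst, and the nearest to the principal start was 1590 kb away.

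Lama3 likewise makes a long and a short α3 chain, and the short one is the chain of laminin-332 in epidermis. The start of the short transcript, with a coding length of 5172 nucleotides against 9990, lies 170 kb downstream of the principal start. A control peak (chr18:12503681-12504919) covered it with a summit of 6.57, below the 7.59 of the long transcript's start. It held no region, and none lay within 100 kb. The region counted for Lama3 was therefore within 100 kb of the start of the long transcript only.

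For Lamb3, 3 transcripts share the highest rank in the annotation, and the start at chr1:193301993 was taken. An alternative start 94.3 kb upstream was not covered by a control peak. With the starts of all coding transcripts used, the members had 158 control peaks and 8 regions, and the number of genes with a region stayed at 6.

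**Figure D3:**
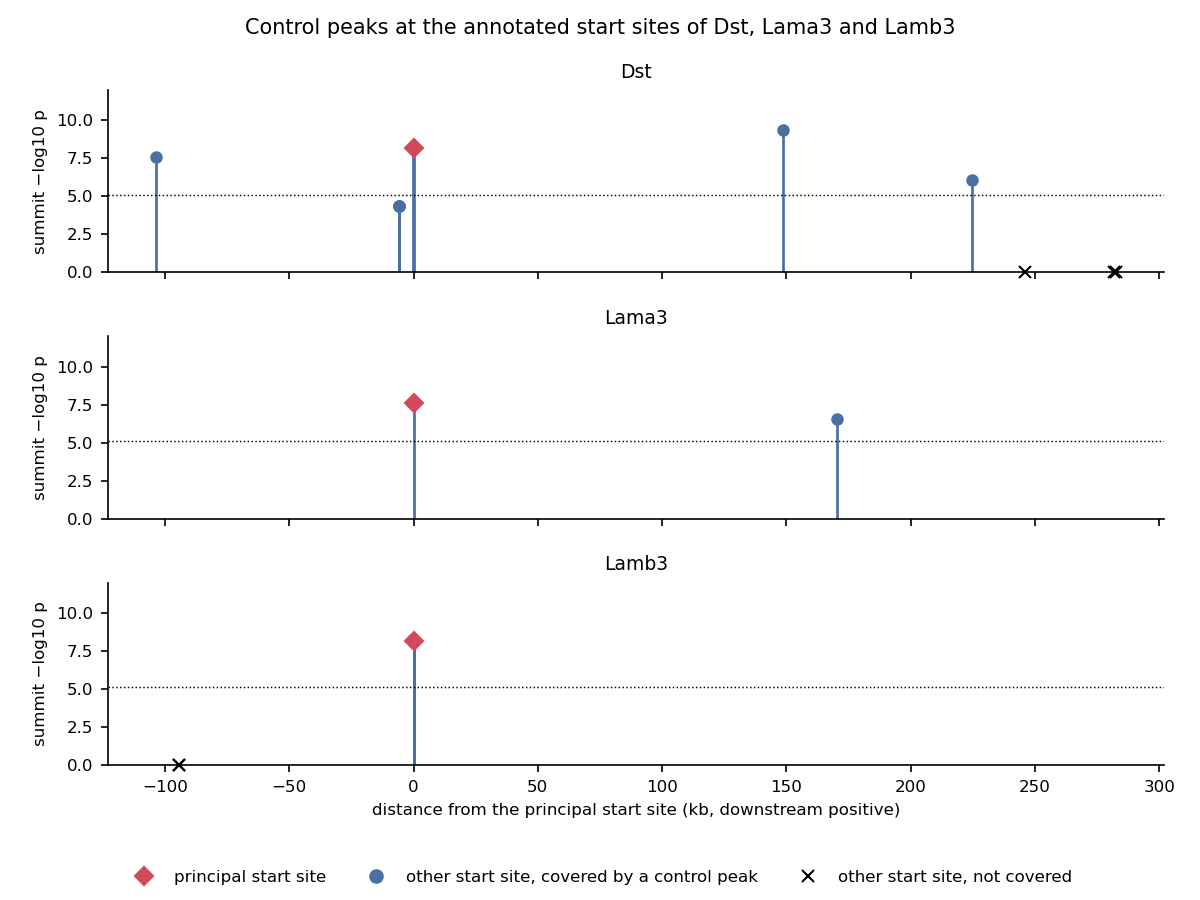
Annotated coding start sites of Dst, Lama3 and Lamb3 by distance in kb from the principal one (red diamonds), with the summit −log10 p of the control peak that covers each. Crosses on the base line are start sites without such a peak, and the dotted line is the median of all control peaks. At Dst the start 149 kb downstream has the highest value, 9.35.

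As a group the member control peaks had a higher median summit and a larger median width than the list, as did other peaks near genes. Their median summit −log10 p was 5.56, with an interval of 5.06 to 6.59. The median was 5.10 over all control peaks on the 21 chromosomes and 5.30 over those with a start site within 100 kb. Both values lie inside the interval, so the member peaks were not shown to be stronger. The median width of the member peaks was 752 bp against 560 and 601 bp. Of the member peaks 38.1% lay within 5 kb of a start site, against 30.0% of the list. Among distal peaks the median summits were 4.74 for the members and 4.66 for the list. The GC content was similar, with medians of 53.4 and 51.8%.

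The share of member peaks with the AP-2 string was within counting error of the list. GCCNNNGGC lay within 100 bp of the summit in 17 of 126 member peaks (13.5%, 8.60 to 20.5%) and in 14.4% of all control peaks on the 21 chromosomes. With 1 more base in the spacer it lay at 15.9% (10.5 to 23.2%) against 12.8%, and at the 49 peaks nearest to a member's start site GCCNNNGGC lay at 10 (20.4%, 11.5 to 33.6%). Itga6 and Dst, without a region, had 4 such peaks each. Of the other genes Itga3 had 3, Itgb4 had 2 and the remaining 4 had 1 each.

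The TEAD and AP-1 strings were more frequent at the member summits than in the list. TEAD proteins are DNA-binding partners of YAP, which responds to adhesion and tension. GGAATG lay within 100 bp of the summit in 26 of 78 distal member peaks (33.3%, 23.9 to 44.4%), against 20.9% of all such peaks. Over member peaks at any distance it lay at 31 of 126 (24.6%, 17.9 to 32.8%) against 17.9%, a share that the interval reaches. With each gene left out in turn the distal share ran from 30.8 to 36.8%. Without Dst, which had 6 of these peaks, the lower end of the interval was 20.9%, that is, at the share of the list. The string is short and its count was not tested.

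The AP-1 string lay at 13 of 126 member summits (10.3%, 6.13 to 16.9%), against 5.80% of all control peaks, and at 10 of 78 distal ones (12.8%, 7.12 to 22.0%) against 6.77%. Itgb4 and Lamb3 had 4 each, Lama3 had 2, Itga6, Col17a1 and Dst had 1 each, and Itga3 and Lama5 had 0. With Lamb3, Itgb4 or Lama3 left out the share was 8.04, 8.33 or 9.48%, and the lower ends of the intervals, 4.29, 4.45 and 5.38%, were below the share of the list. The Grainyhead-like string lay at 1.59% of member peaks (0.436 to 5.60%) against 3.09%, both of these peaks at Itgb4, and the p53 family string at 10.3% (6.13 to 16.9%) against 8.68%. Both were within counting error of the list.

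**Figure D4:**
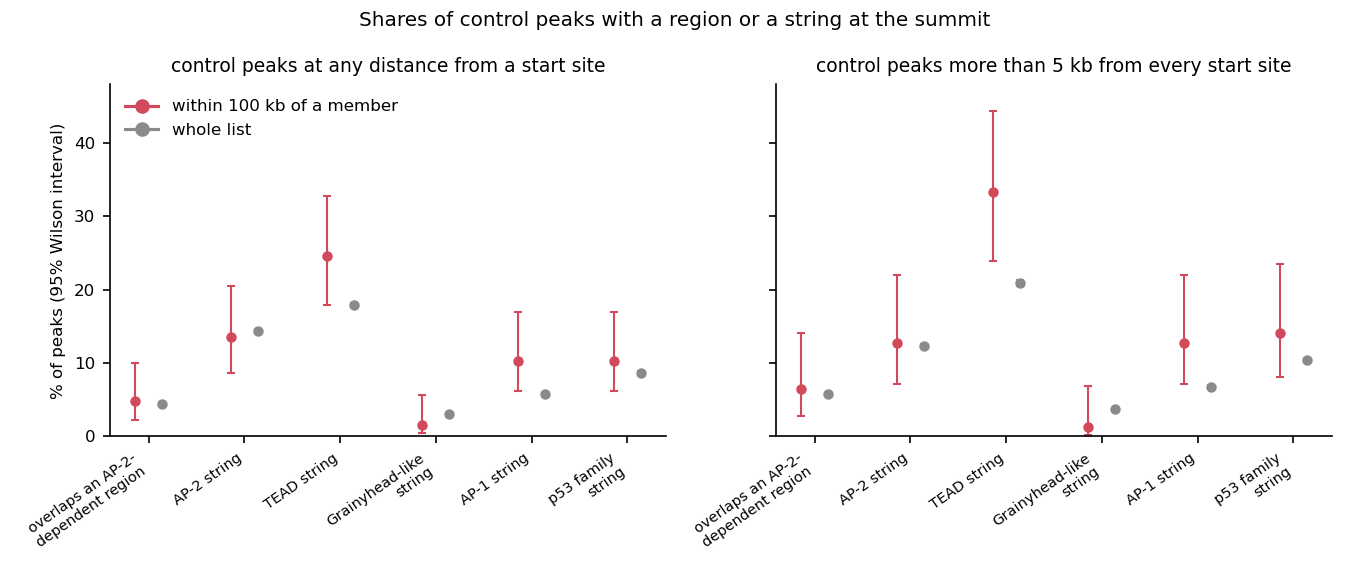
Percent of control peaks that overlap an AP-2-dependent region or hold a string within 100 bp of the summit, for peaks within 100 kb of a member gene (red) and the whole list (grey), at any distance from a start site (left) and for distal peaks only (right). Bars are 95% Wilson intervals. Shares overlapping a region are alike (4.76 and 4.48% on the left), and the TEAD string on the right shows the widest gap in percentage points (33.3 and 20.9%).

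Other genes of the basement membrane and its receptors were counted in the same way. Of 22 such genes, 10 had an AP-2-dependent region within 100 kb (45.5%, 26.9 to 65.3%), against 20.2% of all genes, and 20 had a control peak within 1 kb of the start site (90.9%). The comparison with all genes was not matched for the number of control peaks. Those with a region were the laminin genes Lamc1, Lamb1, Lama1 and Lama4, the integrin gene Itga2, Hspg2 (perlecan), Dag1 (dystroglycan), Npnt (nephronectin, a ligand of integrin α8β1), and Col4a1 and Col4a2, which share a promoter and the same 2 regions.

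The region with the largest area among them lay 75.3 kb upstream of Dag1, nearest to Gpx1, at 1411, and it held 2 AP-2 strings. A region 6.54 kb downstream of the Lamb1 start had an area of 1101, and at Lamc1 a region 4.74 kb downstream had 539. Col7a1, the gene of anchoring fibril collagen, and Itgb6 were the genes without a control peak within 1 kb, and both were named after their values were seen.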

How the data were processed

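ATAC-seq peaks of E11.5 facial surface ectoderm, 2 control and 2 EDKO libraries, were analysed. Adapters were trimmed by the authors with NGmerge, reads were mapped to mm10 with Bowtie2 (up to 10 alignments per read pair kept) and peaks were called with Genrich 0.5, with duplicates and mitochondrial reads removed. The deposited area under the curve and the deposited score are Genrich's (the score is 1000 times the area over the width, capped at 1000), and the deposited −log10 p at the summit is not adjusted for the number of positions. Summit offsets were also deposited by the authors.

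Centres of peaks were measured to the start of 1 principal APPRIS transcript per protein-coding gene (GENCODE mouse release 21, GRCm38), the lowest transcript ID where ranks tied. Coordinates count from 1. Overlaps needed 1 bp. A peak more than 5 kb from every principal start site counted as distal, so a distal peak can lie at another annotated start. Strings were searched on both strands in the 201 bp around each summit. Shares carry 95% Wilson intervals (scipy 1.17.1, Python 3.11.15), which cover counting error only.

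The members, the gene lists and the strings were chosen with earlier results of these data known. All 8 genes, their regions, start-site peaks and strongest peaks are named, as are listed genes with a region. Results for some items are not reported here. The interval functions were tested on simulated data. Alternatives were other distance limits, an area of at least 500, all coding starts, nearest-gene assignment, stricter overlap, other strings and each gene left out. Reads, coverage tracks, H3K4me3 data, RNA-seq values and regions gained in EDKO were not analysed here. Library depth is not known from the lists.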

Additional observations from a re-analysis of the deposited data

How the results depend on the processing

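Of 56 alternative values, 43 stayed close to those reported (counts within 1.5 times, shares and the median within their own interval) and 13 did not. With a limit of 50 kb there were 72 control peaks, with a median summit −log10 p of 6.60, and with 250 kb there were 322 control peaks and 17 regions. An area of at least 500 left 2 regions at 2 genes, 2.20% of member control peaks with a region (2.46% of the list) and a median of 6.91. When peaks had to have a member's start site as the nearest one, 49 control peaks and 3 regions were left. An overlap that fills 50% of both intervals left 1.59% of member peaks and 2.56% of distal ones, against 2.87% and 3.85% of the list. GCCNNNGGC anywhere in the peak was found in 37.3% of member peaks and 32.4% of the list. With each gene left out in turn the share with a region ran from 4.20 to 5.41%, and for distal peaks from 5.41 to 7.69%. A further 16 values, for the TEAD and AP-1 strings with each gene left out, were chosen after seeing the data. All stayed within the intervals reported, but these are wide, so this says little. Without Dst the TEAD interval reached the share of the list, and without Lamb3, Itgb4 or Lama3 so did the AP-1 interval.

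No paired analysis was possible because each list pools its libraries, and leaving out a library was not possible either. The lists set several limits. There is no error between replicates, and depth is not in the lists. The paper gives only an approximate number of reads per sample. A region says nothing of how much accessibility was left in EDKO ectoderm, and the nearest gene need not be the one an element acts on.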
